A study of Oryctolagus cuniculus with 12 samples.

Results

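The genes described here are 10 genes of mural and smooth muscle cells that were chosen by name: the contractile genes ACTA2, TAGLN, MYH11, CNN1 and DES, and the surface and signalling genes MCAM, RGS5, NOTCH3, PDGFRB and CSPG4. Of the 10 genes, 9 were found among the 14621 genes of the rabbit count table, and CNN1 was not analysed here. RNA came from the temporomandibular joint, the hinge of the jaw, of rabbits labelled WT. Osteoarthritis (OA) was induced surgically by punching a 2.5 mm hole through the articular disc, from which the punched tissue was taken out. The 12 bulk libraries formed 4 groups of 3: OA superficial zone cells, control superficial zone cells, OA condylar cartilage cells and control condylar cartilage cells. The labels used here give neither the age of the rabbits, the time after surgery, any operation on the control joints, nor which libraries share an animal, so that p-values cover only the spread among these samples, which may be technical.

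Mural cells wrap the endothelial tube of blood vessels. Smooth muscle cells surround arteries and arterioles and contract by means of smooth muscle actin and myosin, whereas pericytes lie along capillaries and carry fewer contractile filaments. Endothelial cells recruit both through PDGF-B, which acts on the receptor PDGFRB, and keep them in place in part through Notch ligands that act on NOTCH3. Mature articular cartilage is avascular, while the fibrous tissue at a joint's surface and margin borders on vessels, and several of these genes are also expressed outside vessels, for example in fibroblasts, chondrocytes or skeletal muscle.

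Library totals ranged from 7326255 to 16769536 estimated counts. There were 2 near-duplicate pairs within groups, although the labels number the 3 libraries of each group as biological replicates. OA superficial zone libraries 2 and 3 had a biological coefficient of variation of 0.0414 and OA condylar cartilage libraries 1 and 2 one of 0.0587, where all other library pairs of a group had 0.208 to 0.617. The counts of each such pair were added up to give 1 sample, so that the tests used 10 samples, with n = 2 in each OA group and n = 3 in each control group. OA superficial zone library 1 stood apart from its partners, with the cartilage collagen COL2A1 at 50158 CPM against 2440 and 2555 CPM. Control condylar cartilage library 3 also stood apart, with COL2A1 at 916 CPM against 41857 and 55493 CPM and ACAN at 426 CPM against 9167 and 11060 CPM. COL10A1 was at 179 CPM in it against 10159 and 14710 CPM, HAPLN1 at 110 CPM against 3352 and 6312 CPM, and SOX9 at 57.2 CPM against 464 and 616 CPM. The osteoblast marker IBSP was lower as well, at 1204 CPM against 2418 and 6951 CPM. Some other markers lay near those of its partners, such as the chondrocyte marker MATN1 at 106 CPM against 97.5 and 74.5 CPM. The osteoblast marker DMP1 was at 502 CPM against 432 and 350 CPM, and PHEX at 469 CPM against 403 and 346 CPM. The collagen COL3A1 lay below both partners, at 2382 CPM against 3715 and 6503 CPM. PRG4, which encodes the surface lubricant lubricin, was at 234, 432 and 449 CPM in OA superficial zone libraries and 232, 163 and 274 CPM in control superficial zone libraries, against 107, 117 and 60.1 CPM in OA condylar cartilage and 18.5, 31.4 and 39.9 CPM in control condylar cartilage. CPM values are counts per 1000000 of the library total after TMM scaling. When libraries were scaled by their totals alone, the median over all genes (log2 fold change) shifted. For OA minus control it became -0.24 in place of 0.05 in the superficial zone, and 0.23 in place of -0.03 in condylar cartilage. The difference of these effects had a median of 0.50 in place of -0.02. For condylar cartilage minus superficial zone it became 0.25 in place of 0.01 in OA joints, and -0.25 in place of 0.02 in control joints.

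Among the 9 genes, the receptor PDGFRB had the highest median level per transcript length in 3 of the 4 groups. In the deposited TPM values its median was 239 in the OA superficial zone, 134 in OA condylar cartilage and 112 in control condylar cartilage. In the control superficial zone the proteoglycan CSPG4 had the highest median, at 246 TPM, followed by PDGFRB at 210 TPM, and their libraries overlapped. The contractile genes held different places in the 2 zones. ACTA2 held place 2 of 9 in the OA superficial zone, with a median of 137 TPM and a range of 20.6 to 145 TPM, and place 7 of 9 in OA condylar cartilage, with a median of 15.1 TPM and a range of 9.48 to 19.8 TPM. TAGLN and DES held the last places in condylar cartilage, with medians of 4.72 and 2.99 TPM in OA and 5.31 and 3.16 TPM in control. In these orders a gene's libraries lay wholly above those of the next gene for PDGFRB and CSPG4 in the OA superficial zone, PDGFRB in the control superficial zone, PDGFRB, CSPG4, NOTCH3 and ACTA2 in OA condylar cartilage and MYH11 in control condylar cartilage. All other neighbours overlapped.

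**Figure D1:**
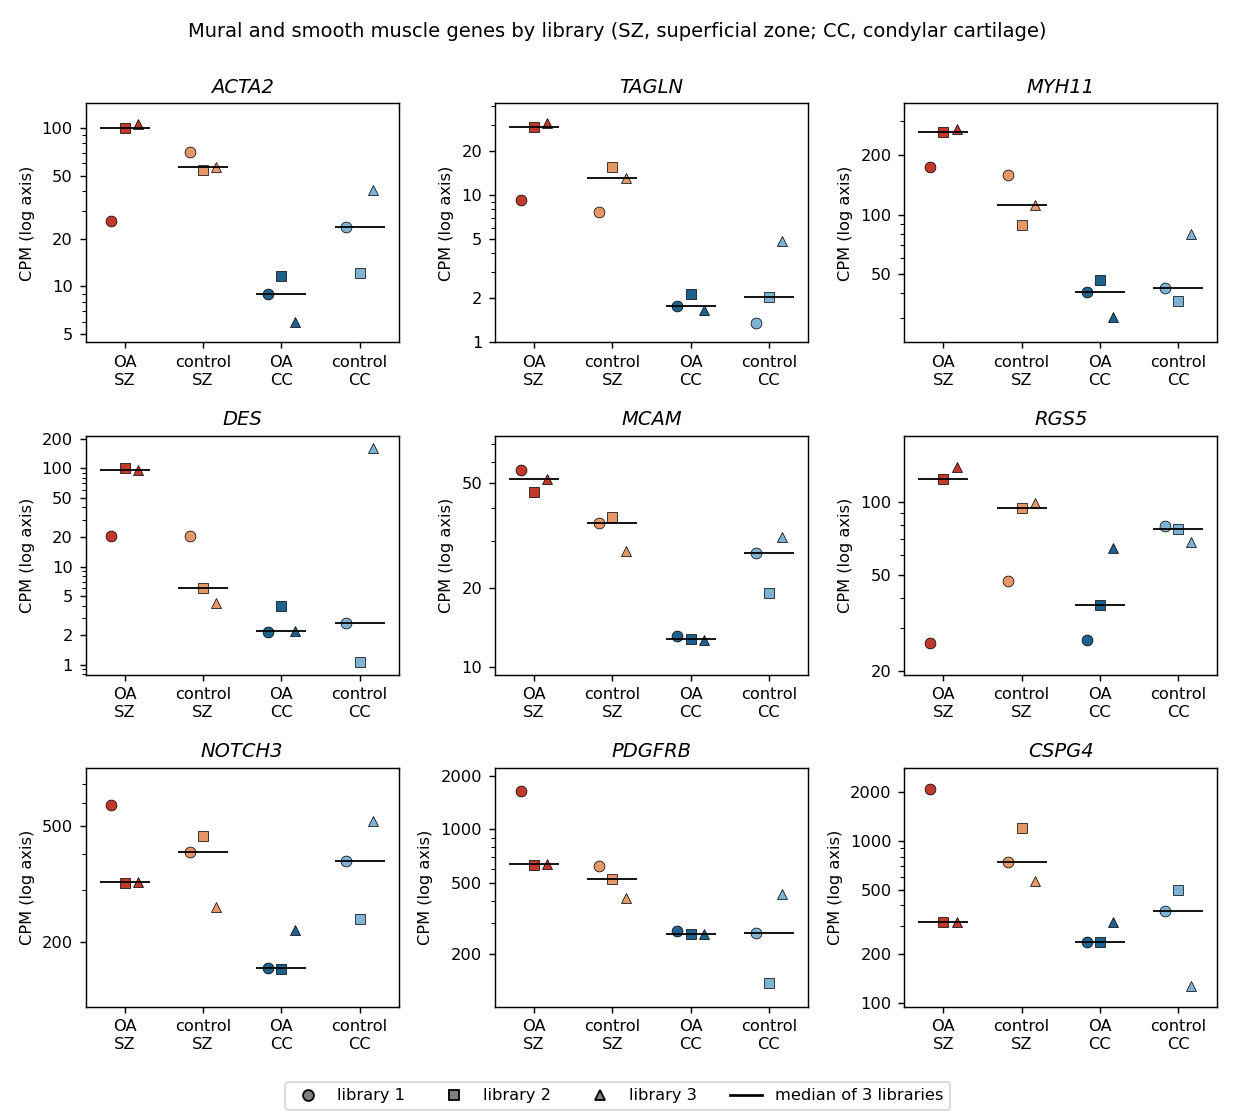
Each panel shows 1 of the 9 genes and each point 1 library, with the level in CPM on a log axis and the 4 groups side by side. TAGLN and MYH11 lay lower in every condylar cartilage library than in any superficial zone library, DES reached 159 CPM in control condylar cartilage 3, and OA superficial zone 1 held the highest PDGFRB (1642 CPM) and CSPG4 (2095 CPM) of all libraries.

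The first comparison set OA against control in the superficial zone. None of the 9 genes passed the test (edgeR adjusted p under 0.05), against 0.0208% of all genes tested. DESeq2 and limma-voom also called 0, but DESeq2 gave DES no adjusted p in any comparison, so that its counts cover the other 8 genes. At an unadjusted p under 0.05 there were 3 of the 9, MYH11, MCAM and PDGFRB, against 11.1% of all genes. The 3 OA libraries all lay above the 3 control libraries for 4 genes, MYH11, DES, MCAM and PDGFRB, where 10.1% of all genes did so. The median log2 fold change of the 9 genes was 0.66, and 8 of them had a positive value, whereas under scaling by library totals the median was 0.35 and ACTA2, NOTCH3 and CSPG4 turned negative, and under median-of-ratios scaling RGS5 turned positive. In bulk tissue, fewer cells of a type and less RNA per cell cannot be told apart.

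ACTA2 (ENSOCUG00000008193), the smooth muscle actin, was at 25.8, 99.9 and 106 CPM in the OA superficial zone, against 70.6, 54.7 and 57.1 CPM in the control superficial zone. OA library 1 lay below all 3 control libraries and the near-duplicate OA pair above them, and the log2 fold change was 0.09 ± 0.57 (SE; edgeR adjusted p = 0.951). Actin genes are nearly identical in their coding sequence, so that reads may be divided among them in the authors' counting and the ACTA2 values are uncertain. TAGLN (ENSOCUG00000011970), the actin-binding protein transgelin, was at 9.19, 29.1 and 31.0 CPM in the OA superficial zone, against 7.63, 15.6 and 13 CPM in the control superficial zone. Its groups overlapped through OA library 1, and the log2 fold change was 0.71 ± 0.58 (adjusted p = 0.630).

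MYH11 (ENSOCUG00000013450), the smooth muscle myosin heavy chain, was at 175, 263 and 271 CPM in the OA superficial zone, against 159, 88.9 and 112 CPM in the control superficial zone. The lowest OA library stood just above the highest control library, and the log2 fold change of 0.89 ± 0.40 did not pass the test (adjusted p = 0.448). DES (ENSOCUG00000000968) encodes desmin, an intermediate filament of smooth, cardiac and skeletal muscle. DES was at 20.4, 100.2 and 94.8 CPM in the OA superficial zone, against 20.4, 6.06 and 4.21 CPM in the control superficial zone. The near-duplicate OA pair was high, OA library 1 lay only just above control library 1, and the log2 fold change was 2.54 ± 1.48 (adjusted p = 0.542). With OA superficial zone 1 and control condylar cartilage 3 both left out, DES alone of the 9 passed, at a log2 fold change of 3.23 (adjusted p = 0.0296), and the OA superficial zone was then the near-duplicate pair alone, a lone sample assumed to vary like the other groups. In that fit 1.95% of all genes passed.

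MCAM (ENSOCUG00000024055), the adhesion molecule CD146 of pericytes and endothelial cells, was at 55.8, 46.0 and 51.7 CPM in the OA superficial zone, against 35.1, 37.0 and 27.6 CPM in the control superficial zone. The libraries of both groups were tight and apart from each other, and the log2 fold change was 0.66 ± 0.30 (adjusted p = 0.448). RGS5 (ENSOCUG00000001169), a regulator of G protein signalling used as a pericyte marker, was at 26.1, 124 and 139 CPM in the OA superficial zone, against 46.9, 94.7 and 98.7 CPM in the control superficial zone. OA library 1 held the lowest RGS5 level of all 12 libraries, and the log2 fold change was -0.01 ± 0.57 (adjusted p = 0.994).

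NOTCH3 (ENSOCUG00000022014), the Notch receptor of vascular smooth muscle, was at 588, 318 and 321 CPM in the OA superficial zone, against 407, 463 and 263 CPM in the control superficial zone (log2 fold change 0.27 ± 0.42, adjusted p = 0.790). PDGFRB (ENSOCUG00000001725) was at 1642, 631 and 642 CPM in the OA superficial zone, against 625, 531 and 412 CPM in the control superficial zone. All 3 OA libraries lay above the highest control library, the near-duplicate pair only just, and the log2 fold change of 1.12 ± 0.50 did not pass the test (adjusted p = 0.443). CSPG4 (ENSOCUG00000003185), the proteoglycan NG2 of pericytes and of chondrocytes, was at 2095, 315 and 317 CPM in the OA superficial zone, against 738, 1192 and 569 CPM in the control superficial zone. OA library 1 lay above all control libraries and the near-duplicate pair below them, and the log2 fold change was 0.53 ± 0.71 (adjusted p = 0.746). Without OA superficial zone 1 and control condylar cartilage 3 the log2 fold change was -1.43 for CSPG4, -0.27 for NOTCH3 and 0.25 for PDGFRB.

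**Figure D2:**
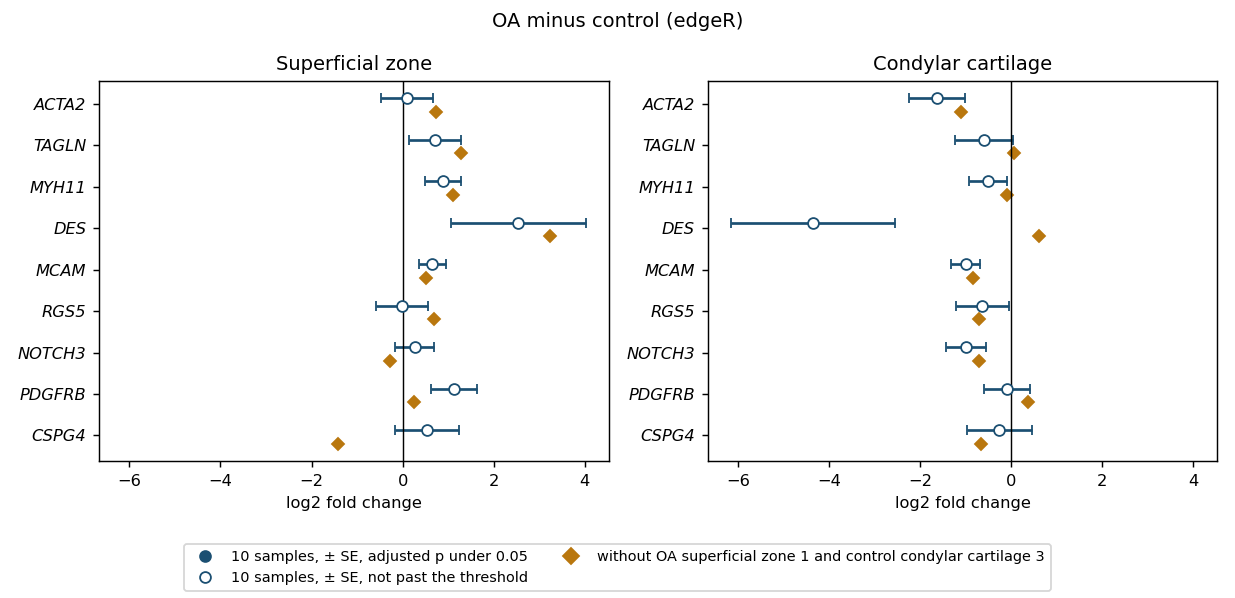
Log2 fold change of OA minus control (x axis) for each of the 9 genes (rows), in the superficial zone and in condylar cartilage. Circles are the estimates from 10 samples with ± SE, none of them past the threshold, and diamonds are the estimates without OA superficial zone 1 and control condylar cartilage 3. In the superficial zone 8 of the 9 circles lie above 0 and in condylar cartilage all 9 lie below 0; scaling by library totals turned ACTA2, NOTCH3 and CSPG4 negative in the superficial zone and PDGFRB positive in condylar cartilage, and median-of-ratios scaling turned RGS5 positive in the superficial zone.

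The second comparison set OA against control in condylar cartilage. None of the 9 genes passed the test in edgeR, against 0.866% of all genes tested, and DESeq2 and limma-voom also called 0. At an unadjusted p under 0.05 there were 4 of the 9, ACTA2, DES, MCAM and NOTCH3, against 9.25% of all genes. The 3 OA libraries all lay below the 3 control libraries for 4 genes, ACTA2, MCAM, RGS5 and NOTCH3, where 14.7% of all genes did so. All 9 log2 fold changes were negative, with a median of -0.64, whereas under scaling by library totals the median was -0.40 and PDGFRB turned positive.

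ACTA2 was at 8.93, 11.6 and 5.97 CPM in OA condylar cartilage, against 23.8, 12.1 and 40.7 CPM in control condylar cartilage, a log2 fold change of -1.64 ± 0.62 (adjusted p = 0.404). OA library 2 and control library 2 nearly met, and control library 3 was the highest. TAGLN was at 1.75, 2.1 and 1.66 CPM in OA, against 1.34, 2.01 and 4.83 CPM in control, and all values but that of control library 3 lay close together. Its counts reached as low as 9 in control library 1, and the log2 fold change was -0.60 ± 0.63 (adjusted p = 0.887). MYH11 was at 40.6, 46.5 and 30.4 CPM in OA, against 42.7, 36.7 and 79.7 CPM in control, with overlapping groups and a log2 fold change of -0.52 ± 0.41 (adjusted p = 0.821).

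DES was at 2.14, 3.99 and 2.19 CPM in OA condylar cartilage, against 2.68, 1.08 and 159 CPM in control condylar cartilage. The log2 fold change of -4.35 ± 1.80 (adjusted p = 0.476) rested on control library 3: it was 0.57 with that library left out. TAGLN and PDGFRB, at -0.10 ± 0.51 (adjusted p = 0.983), also turned positive without it, at 0.07 and 0.38.

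MCAM was at 13.2, 12.8 and 12.7 CPM in OA condylar cartilage, against 27.1, 19.1 and 31.2 CPM in control condylar cartilage. All OA libraries lay below all control libraries, and the log2 fold change of -1.0 ± 0.31 did not pass the test (adjusted p = 0.238), whereas it passed with all 12 libraries as separate samples (adjusted p = 0.0409). RGS5 was at 26.7, 37.4 and 64.5 CPM in OA, against 79.8, 77.1 and 68.2 CPM in control (log2 fold change -0.64 ± 0.58, adjusted p = 0.864). NOTCH3 was at 162, 161 and 219 CPM in OA, against 380.0, 239 and 522 CPM in control (-1.0 ± 0.44, adjusted p = 0.519). For both genes the groups were apart, by 1 OA library close to the lowest control library. PDGFRB was at 269, 259 and 258 CPM in OA, against 264, 138 and 436 CPM in control. CSPG4 was at 239, 237 and 314 CPM in OA, against 371, 497 and 128 CPM in control (-0.26 ± 0.72, adjusted p = 0.969), and its lowest value was in control library 3.

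The third comparison tested whether the OA effect in condylar cartilage differed from that in the superficial zone. None of the 9 genes passed (edgeR), nor did any gene of the table (0%), and DESeq2 and limma-voom called 0 of the 9. At an unadjusted p under 0.05 there were 3 of the 9, MYH11, DES and MCAM, against 8.76% of all genes. The difference (condylar cartilage minus superficial zone) was negative for all 9 genes, with a median of -1.31, except that CSPG4 was at 0.01 under scaling by library totals, where the median was -0.91. MCAM had the smallest p of the 9: its OA libraries were above the controls in the superficial zone and below them in condylar cartilage, a difference of -1.66 ± 0.43 (adjusted p = 0.342; with 12 separate libraries adjusted p = 0.0489). MYH11 differed by -1.40 ± 0.58 (adjusted p = 0.539), ACTA2 by -1.73 ± 0.82 (0.587 adjusted) and NOTCH3 by -1.26 ± 0.61 (0.587 adjusted). DES differed by -6.89 ± 2.33 (adjusted p = 0.458), and by -2.61 without OA superficial zone 1 and control condylar cartilage 3. Without those libraries the difference was 0.12 for PDGFRB and 0.77 for CSPG4.

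DES moved with skeletal muscle markers across the libraries. Of 14 skeletal muscle genes listed, 8 were measured, and their summed level was 406, 2034 and 2063 CPM in the OA superficial zone and 223, 26.2 and 19.4 CPM in the control superficial zone. It was 50.4, 85.4 and 39.1 CPM in OA condylar cartilage and 22.8, 22.8 and 3376 CPM in control condylar cartilage, with only MYH1 at 0, in control library 2. The DES level equalled 5.02%, 4.93% and 4.59% of that sum in OA superficial zone libraries and 9.14%, 23.1% and 21.7% in the control superficial zone. It equalled 4.24%, 4.67% and 5.60% in OA condylar cartilage and 11.8%, 4.72% and 4.72% in control condylar cartilage. ACTA1, the skeletal muscle actin related to ACTA2, was at 104, 687 and 688 CPM in the OA superficial zone and at 917 CPM in control condylar cartilage 3, against 1.72 to 56.1 CPM in the other 8 libraries. The part of muscle tissue in the DES and ACTA2 values was not tested.

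Endothelial markers were measured for 10 of 12 genes listed, with TIE1 at 0 in 1 library of each control group. Their sum was 502, 451 and 448 CPM in the OA superficial zone, against 317, 319 and 320.0 CPM in the control superficial zone, and 369, 369 and 325 CPM in OA condylar cartilage, against 521, 373 and 563 CPM in control condylar cartilage. The sum of ACTA2, TAGLN and MYH11 per unit of the endothelial sum was 0.419, 0.869 and 0.912 in the OA superficial zone, against 0.748, 0.499 and 0.569 in the control superficial zone. The same ratio was 0.139, 0.163 and 0.117 in OA condylar cartilage, against 0.130, 0.136 and 0.223 in control condylar cartilage. The ratio thus overlapped between OA and control in both zones, and every superficial zone library lay above every condylar cartilage library. The markers in the sum did not move as 1. In condylar cartilage 8 had a negative OA minus control value and 2 a positive one. There 5 were lower at an unadjusted p under 0.05, against 9.25% of all genes, and DESeq2 called ROBO4 lower. ERG, a large part of the sum, was at 111, 105 and 89.3 CPM in OA condylar cartilage, against 68.0, 48.8 and 100 CPM in control. Markers of neutrophils and erythroid cells (7 of 7 measured) summed to 539 to 1755 CPM in OA condylar cartilage. In control condylar cartilage the sum was 5.23 to 27.9 CPM, and up to 4 of them were at 0. All 7 were higher in OA condylar cartilage in edgeR, where 0.866% of all genes passed. DESeq2 called 6 of them higher and limma-voom only ALAS2, where they called 2.43% and 0.388% of all genes. Their sum was 171, 17.6 and 17.1 CPM in the OA superficial zone, against 12.5, 9.35 and 6.98 CPM in the control superficial zone. There 0 of the 7 passed in edgeR or limma-voom, where 0.0208% and 0.0139% of all genes did. All 7 had an unadjusted p under 0.05 in edgeR, against 11.1% of all genes. DESeq2 called CAMP and LTF higher, where it called 1.99% of all genes. The part of these cells in the OA values was not tested.

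**Figure D3:**
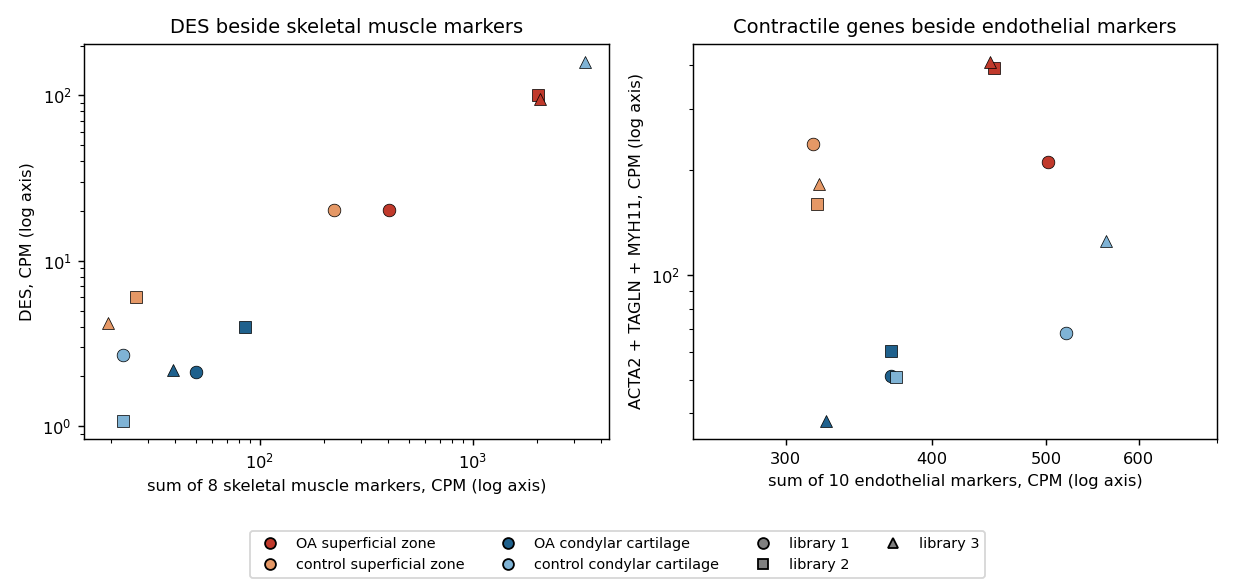
Each point is 1 library, coloured by group, with CPM on log axes. On the left DES is plotted against the sum of 8 skeletal muscle markers, and the 3 libraries with a sum of 2034 CPM or more hold the 3 highest DES levels (94.8 to 159 CPM); on the right the sum of ACTA2, TAGLN and MYH11 is plotted against the sum of 10 endothelial markers (317 to 563 CPM).

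The fourth comparison set condylar cartilage against the superficial zone in OA joints. Of the 9 genes, 4 were lower in condylar cartilage, where 4.1% of all genes tested were lower and 6.48% differed in either direction. They were TAGLN at -3.45 ± 0.71 (log2 fold change ± SE, edgeR adjusted p = 0.0194), ACTA2 at -2.99 ± 0.68 (adjusted p = 0.0290), MYH11 at -2.58 ± 0.47 (adjusted p = 0.0132) and MCAM at -2.03 ± 0.34 (adjusted p = 0.0105). Their means were 1.79 ± 0.19, 8.12 ± 3.04, 37.0 ± 9.34 and 12.8 ± 0.24 CPM in OA condylar cartilage (SD, n = 2), against 19.7 ± 14.8, 64.4 ± 54.6, 221 ± 65.0 and 52.4 ± 4.83 CPM in the OA superficial zone (SD, n = 2). For 8 of the 9 genes, all but RGS5, every OA condylar cartilage library lay below every OA superficial zone library, as 23.9% of all genes did, and 8 of the 9 had an unadjusted p under 0.05, against 27.5% of all genes. All 9 log2 fold changes were negative under every scaling, with a median of -2.13, or -1.72 with library totals.

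The other 5 genes did not pass in edgeR in this comparison. PDGFRB was closest, at -2.13 ± 0.58 (adjusted p = 0.0521), followed by NOTCH3 at -1.25 ± 0.47 (0.122 adjusted), CSPG4 at -2.13 ± 0.81 (0.126 adjusted), DES at -4.48 ± 1.86 (0.151 adjusted) and RGS5 at -0.72 ± 0.63 (0.460 adjusted). DESeq2 called 6 of the 9, the same 4 with PDGFRB (adjusted p = 0.00223) and CSPG4 (adjusted p = 0.0231), where it called 14.6% of all genes. The limma-voom fit called 5, the same 4 with PDGFRB (adjusted p = 0.0399), where it called 9.32% of all genes. The calls rested on few samples. Without OA condylar cartilage 3, which leaves the near-duplicate pair as the lone sample of its group, none of the 9 passed and 0.714% of all genes did. When the OA groups were fitted alone, 0 of the 9 and 0% of all genes passed, while the log2 fold changes of the 4 called genes stayed between -3.46 and -1.97. Without control condylar cartilage 3, DES (adjusted p = 0.0118) and PDGFRB (adjusted p = 0.0258) passed as well, and 9.71% of all genes did. PDGFRB also passed without control condylar cartilage 2 (adjusted p = 0.0379). ACTA2 lost its call without any 1 of the 3 control superficial zone libraries, at adjusted p-values of 0.0537 to 0.0568, and with library totals (adjusted p = 0.0713). CSPG4 was at -0.16 when OA superficial zone 1 and control condylar cartilage 3 were left out.

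The fifth comparison set condylar cartilage against the superficial zone in control joints. TAGLN alone of the 9 genes was lower in condylar cartilage (edgeR), where 4.27% of all genes were lower and 7.49% differed in either direction. TAGLN averaged 2.73 ± 1.85 CPM in control condylar cartilage and 12.1 ± 4.05 CPM in the control superficial zone (SD, n = 3 each), a log2 fold change of -2.14 ± 0.56 (adjusted p = 0.0404). That call was lost without any 1 control superficial zone library and without control condylar cartilage 1 or 2 or OA condylar cartilage 3 (adjusted p = 0.0567 to 0.158), and in limma-voom (adjusted p = 0.0545). MYH11 averaged 53.1 ± 23.3 CPM in control condylar cartilage and 119.9 ± 35.5 CPM in the control superficial zone (-1.18 ± 0.37, adjusted p = 0.0850), and passed in DESeq2 (adjusted p = 0.0358). ACTA2 averaged 25.6 ± 14.4 CPM in control condylar cartilage and 60.8 ± 8.6 CPM in the control superficial zone (-1.25 ± 0.52, adjusted p = 0.217). The libraries of the zones did not overlap for ACTA2, TAGLN, MYH11 and CSPG4, where 15.8% of all genes were lower without overlap. At an unadjusted p under 0.05 there were 3 of the 9, ACTA2, TAGLN and MYH11, against 18.6% of all genes.

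The surface and signalling genes did not pass in control joints. CSPG4 was at -1.33 ± 0.65 (adjusted p = 0.309), PDGFRB at -0.91 ± 0.46 (0.334 adjusted) and MCAM at -0.37 ± 0.27 (0.573 adjusted). RGS5 was at -0.09 ± 0.51 (0.963 adjusted) and NOTCH3 at 0.01 ± 0.38 (0.997 adjusted), which turned to -0.25 with library totals. DES was at 2.42 ± 1.39 (0.418 adjusted), and at -2.51 without control condylar cartilage 3. With that library and OA superficial zone 1 left out, 5 genes were lower: TAGLN at -2.79 (adjusted p = 0.000766), DES at -2.53 (adjusted p = 0.0297), ACTA2 at -1.77 (adjusted p = 0.00438), MYH11 at -1.59 (adjusted p = 0.00357) and PDGFRB at -1.37 (adjusted p = 0.0114). In that fit 16.8% of all genes differed, against 7.49% with all samples. Whether the zone difference itself differed between OA and control is the third comparison, in which none of the 9 passed.

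Markers of other cells differed between the zones beside these genes. Of 9 fibroblast and superficial zone markers listed, 8 were measured. In edgeR 3 of them were lower in condylar cartilage in OA joints, where 4.1% of all genes were lower. The same 3 were lower in control joints, where 4.27% of all genes were. COL3A1, a fibrillar collagen of soft connective tissue, was at -2.41 in OA (adjusted p = 0.0292) and -2.04 in control (adjusted p = 0.0161). THY1, a surface protein of fibroblasts and other stromal cells, was at -2.72 in OA (adjusted p = 0.0121) and -1.69 in control (adjusted p = 0.0188), and PRG4 was at -1.97 in OA (adjusted p = 0.0411) and -2.9 in control (adjusted p = 0.00228). Other markers of the list went the other way in control joints, where 3 of the 8 had a positive log2 fold change, 2 of them at an unadjusted p under 0.05. DESeq2 called COL1A2 higher there and 4 markers lower. COL1A2 was at 57099, 54145 and 95571 CPM in control condylar cartilage, against 28999, 30540 and 25457 CPM in the control superficial zone. None of the 8 markers was at 0, and the collagen COL1A1 had the largest values in their sum. The sum was 132714 to 166024 CPM in OA condylar cartilage, against 94025 to 358881 CPM in the OA superficial zone. In control joints it was 177242 to 367027 CPM in condylar cartilage, against 104890 to 127851 CPM in the superficial zone. Of 6 osteoblast markers, 2 were higher in OA condylar cartilage, where 2.38% of all genes were higher, and 5 in control condylar cartilage, where 3.22% were. Their sum was 1985 to 3379 CPM in OA condylar cartilage, against 301 to 1166 CPM in the OA superficial zone, and 3388 to 8653 CPM in control condylar cartilage, against 465 to 676 CPM in the control superficial zone, with none at 0. The part of fibroblasts and bone cells in the zone values of the 9 genes was not tested.

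**Figure D4:**
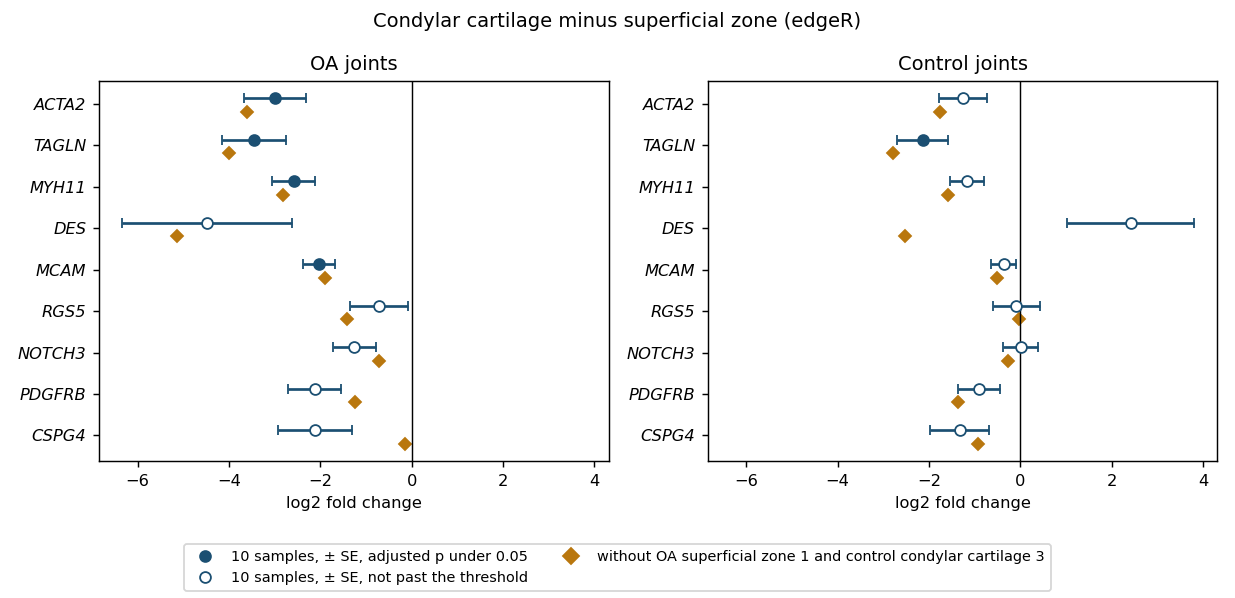
Log2 fold change of condylar cartilage minus superficial zone (x axis) for the 9 genes (rows) in OA joints and in control joints, with ± SE. Filled circles mark an edgeR adjusted p under 0.05 (4 genes in OA, TAGLN in control), open circles the other genes, and diamonds the estimates without OA superficial zone 1 and control condylar cartilage 3, where DES in control joints is at -2.53.

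Further genes of smooth muscle, pericytes and mural cell recruitment were read from lists. Of 14 other contractile genes measured, 0 passed between OA and control in either zone in edgeR. DESeq2 and limma-voom also called 0. At an unadjusted p under 0.05 there were 0 in condylar cartilage, against 9.25% of all genes, and 1 in the superficial zone, against 11.1%. That 1 was MYL9, the regulatory light chain of smooth muscle myosin. It was at 38.4, 48.3 and 55.9 CPM in OA, against 31.7, 23.3 and 20.8 CPM in control (0.84 ± 0.31, adjusted p = 0.350). The smallest p in condylar cartilage belonged to KCNMB1, a subunit of the smooth muscle calcium-activated potassium channel, at 5.91, 6.53 and 4.71 CPM in OA, against 8.78, 12.2 and 8.79 CPM in control (-0.86 ± 0.41, adjusted p = 0.563).

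Between zones, 2 of the 14 were lower in OA condylar cartilage than in the OA superficial zone in edgeR, as 4.1% of all genes were. DESeq2 and limma-voom called 5 each, all lower, where they called 14.6% and 9.32% of all genes. The 2 edgeR calls were MYL9 (-1.41 ± 0.34, adjusted p = 0.0373) and the integrin subunit ITGA8 (-2.78 ± 0.72, adjusted p = 0.0454). Both calls were lost without any 1 control superficial zone library, without OA condylar cartilage 3 or without control condylar cartilage 1, and that of ITGA8 also without OA condylar cartilage 1, at adjusted p-values of up to 0.233 and 0.242. Both were also lost with library totals (adjusted p = 0.133 for MYL9 and 0.102 for ITGA8), with only the OA groups in the fit (0.236 and 0.0920) and with feature lengths as offsets (0.0639 and 0.0532). In control joints ITGA8 was at 2.68, 0.932 and 5.38 CPM in condylar cartilage, against 29.3, 28.0 and 34.2 CPM in the superficial zone (-3.36 ± 0.62, adjusted p = 0.00698). The groups lay far apart, and this call was kept in all 22 other settings. KCNMB1 went the other way in control joints, higher in condylar cartilage by 1.97 ± 0.38 (adjusted p = 0.00879; 0.0530 without control superficial zone 3). The median of the 14 genes was -1.19 in OA and -0.39 in control, against medians of 0.01 and 0.02 over all genes.

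Of 4 measured regulators of the contractile programme, 1 was lower in control condylar cartilage, where 4.27% of all genes were lower. This was MYOCD, the coactivator myocardin that drives smooth muscle genes with SRF. It was at 0.149, 0.430 and 0.879 CPM there, against 2.18, 4.56 and 2.57 CPM in the control superficial zone (-2.63 ± 0.69, adjusted p = 0.0406), and the call was kept in 15 of 22 other settings. It was lost without any 1 library of the control superficial zone, without control condylar cartilage 1 or 2 and without OA condylar cartilage 3, at adjusted p-values of up to 0.177, and in limma-voom (adjusted p = 0.0716). None of the 4 passed between OA and control in edgeR, DESeq2 or limma-voom, and none had an unadjusted p under 0.05 there. The smallest p belonged to MRTFA, a myocardin-related cofactor of SRF, in the superficial zone (1.28 ± 0.63, adjusted p = 0.482) and to MYOCD in condylar cartilage (1.22 ± 0.74, adjusted p = 0.701).

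Some pericyte genes were higher in control condylar cartilage, where TAGLN, ITGA8 and MYOCD were lower and the contractile gene KCNMB1 was higher. Of 10 other pericyte genes measured, 3 were higher in control condylar cartilage, where 3.22% of all genes were higher, and 0 lower. The list was mixed, with 6 positive and 4 negative log2 fold changes, down to -1.16. At an unadjusted p under 0.05 there were 4 higher and 1 lower, against 18.6% of all genes. HIGD1B was at 2.68, 2.94 and 2.75 CPM in control condylar cartilage, against 6.21, 4.19 and 6.47 CPM in the control superficial zone. HEY2, a transcriptional repressor induced by Notch signalling, was at 52.8, 31.4 and 70.5 CPM in control condylar cartilage, against 6.65, 7.85 and 9.34 CPM in the control superficial zone (2.7 ± 0.46, adjusted p = 0.00506). HEYL, another Notch target, was at 114, 83.7 and 147 CPM in control condylar cartilage, against 36.2, 33.7 and 26.2 CPM in the control superficial zone (1.84 ± 0.31, adjusted p = 0.00458). Both calls were kept in all 22 other settings, while the receptor NOTCH3 had a zone difference of 0.01 in the same comparison. ANPEP, the peptidase CD13, was higher as well (2.62 ± 0.71, adjusted p = 0.0470), but its groups overlapped, and the call was kept in 12 of 22 settings. It was lost without any 1 control superficial zone library, without OA condylar cartilage 3 and without control condylar cartilage 1 or 3, at adjusted p-values of up to 0.200, and also in limma-voom, with library totals, with only the control groups in the fit and with OA superficial zone 1 and control condylar cartilage 3 left out (0.0523 to 0.199). HEY2 and HEYL are also known from endothelial cells.

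Of 10 recruitment ligands and receptors measured, 3 were higher and 0 lower in control condylar cartilage. Of all genes, 3.22% were higher there than in the control superficial zone and 4.27% lower. S1PR3, a receptor for sphingosine-1-phosphate, was at 283, 193 and 466 CPM in condylar cartilage, against 51.2, 32.4 and 35.5 CPM in the superficial zone (2.98 ± 0.48, adjusted p = 0.00366). TEK, the endothelial receptor for angiopoietins, was higher by 2.09 ± 0.40 (adjusted p = 0.00812) and the ligand PDGFA by 2.25 ± 0.50 (adjusted p = 0.0185). TEK lost its call without control superficial zone 2 (adjusted p = 0.0567), and PDGFA without any 1 control superficial zone library (adjusted p up to 0.0986). In OA joints 0 pericyte and 0 recruitment genes passed between the zones in edgeR. At an unadjusted p under 0.05 there were 5 pericyte genes, 2 higher and 3 lower in condylar cartilage, against 27.5% of all genes. Of the recruitment genes 3 were under it, 2 higher and 1 lower. DESeq2 called ANPEP, HEY2 and S1PR3 higher and the pericyte gene KCNJ8 lower, where it called 14.6% of all genes. The limma-voom fit called S1PR3 higher and KCNJ8 lower, where it called 9.32%. Between OA and control 0 of either list passed in edgeR, DESeq2 or limma-voom. At an unadjusted p under 0.05 there were 1 pericyte and 2 recruitment genes in the superficial zone, against 11.1% of all genes. In condylar cartilage there was 1 of each list, against 9.25% of all genes. The smallest p in the superficial zone belonged to PDGFA (1.75 ± 0.54, adjusted p = 0.275) and HEY2 (1.08 ± 0.48, adjusted p = 0.443), and in condylar cartilage to HEYL (-1.05 ± 0.35, adjusted p = 0.288) and PDGFB, the ligand of PDGFRB (-0.92 ± 0.38, adjusted p = 0.473).

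Among endothelial genes, 4 of 10 were higher in control condylar cartilage than in the control superficial zone, against 3.22% of all genes. KDR, the main VEGF receptor, was higher by 1.99 ± 0.28 (adjusted p = 0.00197), CDH5 by 1.87 ± 0.34 (0.00689 adjusted), PLVAP by 1.69 ± 0.33 (0.00886 adjusted) and ROBO4 by 1.43 ± 0.27 (0.00777 adjusted). Without control superficial zone 2, CDH5 (adjusted p = 0.0510) and ROBO4 (adjusted p = 0.0544) lost their calls. The adhesive glycoprotein VWF alone of the 10 passed in OA joints, where it was lower in condylar cartilage, as 4.1% of all genes were. It was at 13.6, 14.8 and 10.8 CPM there, against 144, 139 and 143 CPM in the superficial zone (-3.51 ± 0.76, edgeR adjusted p = 0.0236). That call was lost without OA condylar cartilage 3 and with only the OA groups in the fit (edgeR adjusted p = 0.0513). In OA joints 6 of the 10 log2 fold changes were negative and 4 positive. In control joints 8 were positive and 2 negative, and 1 was lower at an unadjusted p under 0.05. VWF was at 8.63, 5.88 and 37.0 CPM in control condylar cartilage, against 51.0, 58.7 and 30.1 CPM in the control superficial zone. ERG was at 68.0, 48.8 and 100 CPM in control condylar cartilage, against 104, 124 and 124 CPM in the control superficial zone. ROBO4 was at 15.5, 16.3 and 18.8 CPM in OA condylar cartilage, against 33.8, 22.3 and 22.0 CPM in the OA superficial zone. DESeq2 also called ESAM lower there. The part of endothelial cells in the zone values of the pericyte and recruitment genes was not tested.

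**Figure D5:**
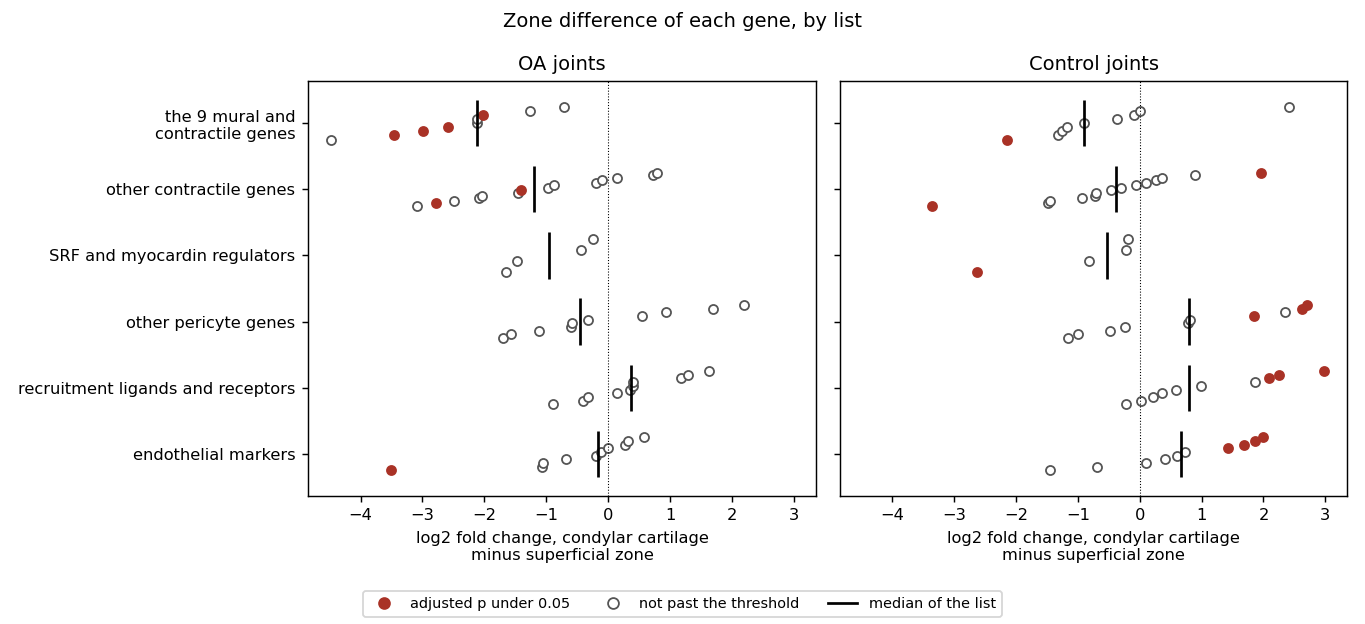
Log2 fold change of condylar cartilage minus superficial zone for each measured gene of the lists (points), in OA joints and in control joints, with filled points at an edgeR adjusted p under 0.05 and a bar at each list's median. In control joints the filled pericyte, recruitment and endothelial genes and the contractile gene KCNMB1 lie above 0, and the filled TAGLN, ITGA8 and MYOCD below 0.

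Across the 10 samples the 9 genes did not all follow 1 pattern. The highest Pearson correlation of log2 CPM between members was 0.90, for TAGLN and MYH11, and ACTA2 correlated at 0.85 with each of them. The lowest was -0.31, for RGS5 and PDGFRB. These values are descriptions over samples that share zone and depth. The mean standardised level of the 9 genes was 0.75 and 0.96 in OA superficial zone samples, 0.22 to 0.58 in the control superficial zone, -1.07 and -0.96 in OA condylar cartilage and -0.77 to 0.21 in control condylar cartilage. The genes most like this mean over the 10 samples, of 8493 with a mean of at least 5 CPM, were the peroxidasin gene PXDN, IGFBP4 and ITGB4 (r = 0.96 each), ZNF503 and TINAGL1 (r = 0.95 each), CORO6 and CAMK1 (r = 0.95 each) and DPYSL2 (r = 0.94). For DES the nearest gene was HSPB6, which encodes a small heat shock protein of muscle (r = 0.99). For ACTA2 it was NR2F2 (r = 0.94), for TAGLN PLPP3 (r = 0.97) and for MCAM DPYSL2 (r = 0.97).

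Feature lengths differed between libraries, by a ratio of 1.64 for RGS5 and of 1.03 to 1.25 for the other 8 genes between the longest and the shortest. With these lengths as offsets in the fit, none of the 9 genes gained or lost a call, while MYL9 and ITGA8 lost theirs between zones in OA.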

How the data were processed

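Bulk RNA was sequenced in 12 rabbit libraries from total RNA (RNeasy Micro extraction, ribosomal RNA depletion with QIAseq FastSelect, directional NEBNext Ultra II libraries), per the labels' protocols. Tools listed in the submitters' processing notes, with no role or order, are Salmon 1.1.0, STAR 2.7.9a, Trim Galore 0.6.7, DESeq2 1.26.0, StringTie 2.1.0 and MultiQC 1.13, and the genome is OryCun2.0. The deposited table holds estimated counts per gene, which the authors rounded or gave as whole numbers and whose header calls them both normalised and raw, per the file headers. It also holds TPM values made by the authors, used here only to order genes by level, and feature lengths, per the file headers. Its log2 values, the logarithm of the TPM values made by the authors per the file headers, were not used. The 9 genes were matched by the deposited symbol, and TAGLN through its Entrez identifier.

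The quasi-likelihood F test of edgeR 4.0.16 (R 4.3.3) was applied to the counts with TMM scaling and all 4 groups in 1 model. Genes were kept by filterByExpr at a minimum count of 10, which left 14438. All 9 genes passed the filter. All p-values were adjusted by Benjamini-Hochberg over these genes and read at a threshold of 0.05. The SE of a log2 fold change is its size divided by the square root of F, an approximation. The near-duplicate pairs were summed, leaving 10 samples. Alternatives were DESeq2 1.42.0, limma-voom (limma 3.58.1), other scalings, 12 separate libraries with and without a replicate block, and leaving libraries out. Feature lengths as offsets were added after seeing the data. The fit was tested on simulated data.

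The members and gene lists were chosen with earlier results of these data known. Named genes are all members, list genes past the threshold or of smallest p between OA and control, and the genes most like the members. Depth limits TAGLN, MYOCD and other genes with few counts most.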

Additional observations from a re-analysis of the deposited data

How the results depend on the processing

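The median log2 fold change of the 9 genes kept its sign in all 5 comparisons under every alternative run. The numbers of genes called moved more. Between OA and control in the superficial zone the count was 0, and 1 without OA superficial zone 1 and control condylar cartilage 3 (1.95%). In condylar cartilage, and for the difference between the OA effects, it was 0, and 1 with 12 separate libraries (3.03% and 0.674%). Between zones in OA it was 4 (6.48% of all genes passed), and 7 with 12 separate libraries (19.8%), 6 in DESeq2 (14.6%), 5 in limma-voom (9.32%), 0 with only the groups compared (0%), and 0 to 6 with 1 library left out. Between zones in control it was 1 (7.49%), and 2 with 12 separate libraries (9.86%), 2 in DESeq2 (10.9%), 0 in limma-voom (6.76%), 5 without the named libraries (16.8%), and 0 to 2 with 1 library left out. The share of all genes passing also moved with 1 library left out. Where each group kept at least 2 samples, it was 3.21% to 9.71% between zones in OA and 3.4% to 7.79% in control. The causes of these shifts were not tested.

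Signs turned for log2 fold changes that had not passed the test. In the superficial zone between OA and control, RGS5 was at 0.27 with 12 separate libraries, 0.0023 in DESeq2 and 0.0041 with median-of-ratios factors. ACTA2 was at -0.16 in limma-voom and -0.011 with library totals, where NOTCH3 was at -0.12 and CSPG4 at -0.031. Without the 2 named libraries RGS5 was at 0.68, NOTCH3 at -0.27 and CSPG4 at -1.43. With 1 library left out RGS5 ranged from -0.31 to 0.72, NOTCH3 from -0.24 to 0.40 and CSPG4 from -1.40 to 0.83. In condylar cartilage PDGFRB was at 0.058 in limma-voom and 0.17 with library totals. Without the named libraries TAGLN was at 0.057, DES at 0.62 and PDGFRB at 0.37. With 1 library left out TAGLN ranged from -0.91 to 0.075, DES from -4.93 to 0.57, PDGFRB from -0.42 to 0.38 and CSPG4 from -0.65 to 0.15. For the difference between the OA effects, CSPG4 was at 0.0064 with library totals, and without the named libraries PDGFRB was at 0.12 and CSPG4 at 0.77. With 1 library left out CSPG4 ranged from -1.18 to 1.13. Between zones in control, DES was at -0.12 and NOTCH3 at -0.020 in limma-voom. NOTCH3 was at -0.25 with library totals, -0.013 with only the groups compared and -0.27 without the named libraries, where DES was at -2.53. With 1 library left out DES ranged from -2.51 to 3.35, NOTCH3 from -0.29 to 0.26 and RGS5 from -0.40 to 0.064.

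Correlations of deviations between same-numbered libraries of different groups were of both signs. Of 18 correlations 7 were over 0.1, with a range of -0.26 to 0.29. Between the OA superficial zone and OA condylar cartilage they were 0.29, -0.12 and 0.29 for replicates 1, 2 and 3. With 3 libraries a group and near-duplicates in both OA groups, these values cannot tell whether same-numbered libraries share an animal. With the replicate block on 12 libraries the counts were 0, 0, 0, 5 and 1 of the 9 genes in the order of the comparisons. The shares of all genes that passed in that fit were 0.883%, 2.21%, 0.616%, 16.7% and 8.96%. In that block fit RGS5 was at 0.14 and CSPG4 at -0.16 between OA and control in the superficial zone, CSPG4 was at 0.080 for the difference between the OA effects, and between zones in control RGS5 was at 0.075 and NOTCH3 at -0.031.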
